A study of Mus musculus with 2 samples.

Results

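T cell receptor V gene usage was described from the genes whose symbol begins with Trav (alpha chain) or Trbv (beta chain): 163 of the 31053 genes in the tables, 128 Trav and 35 Trbv. The annotation lists 108 of the Trav and 22 of the Trbv genes as V genes and the other 20 and 13 as pseudogenes. The genes were read in cells whose mitochondrial UMIs (counted transcript molecules) were at most 25% of the cell's total, 7241 control and 6229 creatine cells. The study asked how creatine supply acts on the immune cells of a tumor. B16-OVA tumors, a mouse melanoma cell line that makes the antigen ovalbumin, grew under the skin of wild-type B6 mice and were taken on day 14. Live CD45.2+ cells of 4 pooled tumors per group were sorted, and 10000 cells were loaded for droplet 3′ single-cell RNA sequencing. The day and the number of tumors are those of the labels' protocol, and the study's text gives another day and another number of animals elsewhere. The creatine mice received 10.5 mg creatine into the peritoneum daily, and the control mice PBS by the treatment label, although the protocol entry of the control sample also names creatine. Each group is 1 library, so no difference between them could be tested, and mouse, tumor, library and treatment cannot be told apart. The intervals given are 95% intervals that cover counting error only.

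Each developing T cell joins 1 of many V segments to a J segment to make its alpha chain and joins V, D and J segments to make its beta chain. The choice is kept by all descendants of the cell, so a clone that divides raises the share of its own V genes. Beta chains are held to 1 allele more strictly than alpha chains, and a T cell can carry a second alpha chain. A beta V exon is spliced to either Trbc1 or Trbc2, depending on the J cluster used. Sequencing from the 3′ end reads mostly the constant region, so the V exon of a T cell was seen only in some cells.

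The Trav genes lie on chromosome 14, and in B6 mice a stretch of the locus is present in up to 3 copies, marked by no letter, d or n in the symbol. The end of the V exon is shown for 3 pairs of copies whose counts differed between the libraries, with the bases that differ between the 2 copies in capitals. The sequences are from the GENCODE M21 transcripts, GRCm38, plus strand: chr14:53443720-53443839 for Trav7-3, chr14:52744721-52744840 for Trav7d-3, chr14:53743586-53743705 for Trav16, chr14:53351502-53351621 for Trav16n, chr14:53506167-53506286 for Trav10 and chr14:53122491-53122610 for Trav10n.
Trav7-3: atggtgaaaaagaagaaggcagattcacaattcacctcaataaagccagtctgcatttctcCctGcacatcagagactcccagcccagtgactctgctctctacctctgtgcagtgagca
Trav7d-3: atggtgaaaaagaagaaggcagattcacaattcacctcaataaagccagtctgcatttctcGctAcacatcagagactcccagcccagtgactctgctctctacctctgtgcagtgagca
Trav16: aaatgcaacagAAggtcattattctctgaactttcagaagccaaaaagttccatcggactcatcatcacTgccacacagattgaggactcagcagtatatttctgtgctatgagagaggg
Trav16n: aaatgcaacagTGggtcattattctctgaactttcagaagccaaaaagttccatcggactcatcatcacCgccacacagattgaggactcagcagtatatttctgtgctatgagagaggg
Trav10: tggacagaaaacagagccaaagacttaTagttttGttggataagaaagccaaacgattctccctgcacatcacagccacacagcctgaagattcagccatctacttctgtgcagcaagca
Trav10n: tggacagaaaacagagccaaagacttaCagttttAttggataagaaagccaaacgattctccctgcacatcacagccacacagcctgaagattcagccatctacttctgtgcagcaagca

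Trav7-3 and Trav7d-3 differed at 4 of 402 aligned bases (C19A, G56A, C344G and G347A, counted from the 5′ end of the Trav7-3 transcript, with the Trav7-3 base first). Trav16 and Trav16n differed at 6 of 412, and Trav10 and Trav10n at 6 of 343. A read can be given to a copy only where it covers such a base. Of the 128 Trav genes, 40 had no stretch of 50 bases that was not also in another transcript, and 37 of these had no UMI in any cell kept. Of the 53 Trav genes with more than 50% of such stretches unique, 46 had a UMI. The copies were therefore summed under the unmarked name, which left 57 Trav groups, 40 of them with 2 or more genes. Here Trav7-3 stands for Trav7-3 and Trav7d-3 together unless the copy is named.

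Cells were gated by marker transcripts: CD8 T cells (at least 1 Cd8b1 UMI and 2 UMIs of Cd8a and Cd8b1 together, without Cd4 or Foxp3), conventional CD4 T cells (Cd4 without Foxp3 or CD8) and regulatory T cells (Foxp3, the transcription factor that defines them, without CD8 and with or without Cd4), all with CD3 and Trac transcripts. These held 2395, 160 and 303 control cells and 1961, 186 and 190 creatine cells. Median UMIs per CD8 cell were 10369 and 12464. Markers that the gates did not use were also read. Ikzf2, which encodes Helios, was found in 97.4% and 97.9% of regulatory cells against 37.5% and 43.0% of CD8 cells. Conventional CD4 cells were at 35% and 36%. Gzmb, which encodes granzyme B, was in 78.0% and 82.0% of CD8 cells against 27.5% and 22.0% of conventional CD4 cells. It was also in 63.7% and 58.9% of regulatory cells, so it set CD8 cells less apart from these. Cd40lg was in 18.8% and 33.3% of conventional CD4 cells against 0.292% and 0.969% of CD8 cells. Ctla4 and Il2ra, most frequent in regulatory cells, were in more CD8 than conventional CD4 cells (Ctla4 in 40.9% and 37% against 26.2% and 29.6%). The 2 libraries shared 30 cell barcodes, 5 of them in the control and 3 in the creatine CD8 gate.

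A Trbv UMI was found in 12.3% of control CD8 cells (295 of 2395, 11.0 to 13.7%) and in 29.6% of creatine CD8 cells (580 of 1961, 27.6 to 31.7%). The Trav shares were 32.7% (783 cells) and 32.4% (635 cells), with intervals that overlap. Thinned to 3000 UMIs a cell, which left out 79 control and 37 creatine cells, the Trbv shares were 3.93% and 8.26%. Relative to the constant genes of the same chain, control CD8 cells had 6.64 Trbv UMIs per 1000 Trbc UMIs (5.99 to 7.34) and creatine CD8 cells 10.6 (9.88 to 11.4). For Trav UMIs per 1000 Trac UMIs the order was the other way, 70.8 (67.1 to 74.6) and 41.0 (38.5 to 43.7). Without Trbv20, the Trbv gene seen in more creatine CD8 cells than any other, the Trbv shares were 12.3% and 21.6%.

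In conventional CD4 cells the Trbv share was 17.5% in control and 15.6% in creatine cells, and in regulatory cells 10.9% and 14.2%, with overlapping intervals in both. The Trav shares were 26.2% and 21.5% in conventional CD4 cells and 25.7% and 28.9% in regulatory cells, again overlapping. Trav UMIs per 1000 Trac UMIs were lower in creatine here too. They were 98.7 and 61.2 in conventional CD4 cells, with overlapping intervals, and 61.8 (52.2 to 72.6) and 39.1 (30.7 to 49.2) in regulatory cells. Trbv UMIs per 1000 Trbc UMIs were 19.2 and 11.3 in conventional CD4 and 12.7 and 12.8 in regulatory cells, with overlapping intervals in both. Monocytes and macrophages, which lack a T cell receptor, held a Trbv UMI in 0.161% of 1239 control and 0.528% of 1136 creatine cells at median depths of 10532 and 9889 UMIs. B cells had no Trbv UMI in 15 and 33 cells, which allows a share of up to 20% and 9.09%. A Trav UMI was in 1.05% of control and 0.528% of creatine monocytes and macrophages. The T cell shares were well above those of monocytes and macrophages, while the B cells were too few to compare. In the NK gate, described further below, a Trav UMI was in 5.76% of control and 2.83% of creatine cells. The gates for monocytes and macrophages and for B cells required no Cd3e or Trac UMI, which leaves out cells that held such T cell transcripts. Their shares can therefore understate the background. Most V gene counts were single molecules: 83.9% and 84.2% of the Trbv counts and 73.4% and 74.9% of the Trav counts in CD8 cells were 1 UMI.

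Usage, the share of a gene among the CD8 cells with a UMI of its chain, differed widely between the libraries. Of 31 genes or copy groups in at least 20 cells, 19 were past 2-fold, 9 higher and 10 lower in creatine (61.3%). These were 7 of 14 Trbv genes and 12 of 17 Trav groups. Other genes have no usage, so the background was taken on the share of all gated CD8 cells with a UMI. On that scale 3.73% of 12516 other genes and 12.7% of 3236 other genes found in as many cells as the V genes (20 to 217) were past 2-fold, against 26 of the 33 annotated V genes with copies kept apart, which set that range. With copies summed it was 23 of 31, made up of 11 of 14 Trbv genes and 12 of 17 Trav groups. The Trbv count on this scale also takes in that more creatine than control CD8 cells had any Trbv UMI (29.6% against 12.3%), so it is not a measure of usage alone.

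Trbv20 (chr6:41188273-41188977) was found in 1 control CD8 cell and in 169 creatine CD8 cells, a usage of 0.339% (0.00858 to 1.87%) and 29.1% (25.5 to 33.0%), and the ratio of 86.0 has an interval of 15.2 to 3415 because it rests on 1 control cell. Trbv5 (chr6:41062332-41062803) showed the opposite, with 55 control and 2 creatine cells, a usage of 18.6% and 0.345% and a control-to-creatine ratio of 54.1 (14.3 to 458). Only 22.6% of the 50-base stretches of Trbv5 were its own, since 77.4% were shared with the overlapping lincRNA 5830405F06Rik, which had a UMI in 18 control and 8 creatine CD8 cells.

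Trbv13-1 was used by 17.6% of control and 3.28% of creatine cells with a Trbv UMI (52 and 19 cells), and Trbv19 by 11.9% and 4.66% (35 and 27 cells). By usage both were past 2-fold lower in creatine with intervals apart, as ratios of control to creatine of 5.38 (3.13 to 9.64) and 2.55 (1.5 to 4.38). Trbv13-3 (2 and 18 cells), Trbv15 (6 and 31) and Trbv31 (2 and 21) were past 2-fold higher in creatine, but their usage intervals overlapped. The intervals of their ratios of creatine to control left out 1, at 1.10 to 40.7, 1.08 to 7.70 and 1.31 to 47.0, and rest on few control cells. Trbv3 had 48 and 60 cells and a usage of 16.3% and 10.3%, Trbv12-2 had 29 and 95 cells and 9.83% and 16.4%, Trbv26 had 25 and 41 cells and 8.47% and 7.07%, and Trbv2 had 11 and 30 cells and 3.73% and 5.17%. For these 4 the difference was under 2-fold and the usage intervals overlapped, and the intervals of the ratio of creatine to control left out 1 for Trbv3 (0.428 to 0.949) and Trbv12-2 (1.09 to 2.62). As a share of all gated CD8 cells, of which more had a Trbv UMI in creatine, several of these changed. Trbv19 was no longer past 2-fold (1.46% in control and 1.38% in creatine) and Trbv3 was higher in creatine (2.00% and 3.06%). Trbv12-2 (1.21% and 4.84%), Trbv26 (1.04% and 2.09%) and Trbv2 (0.459% and 1.53%) were then past 2-fold higher in creatine.

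**Figure D1:**
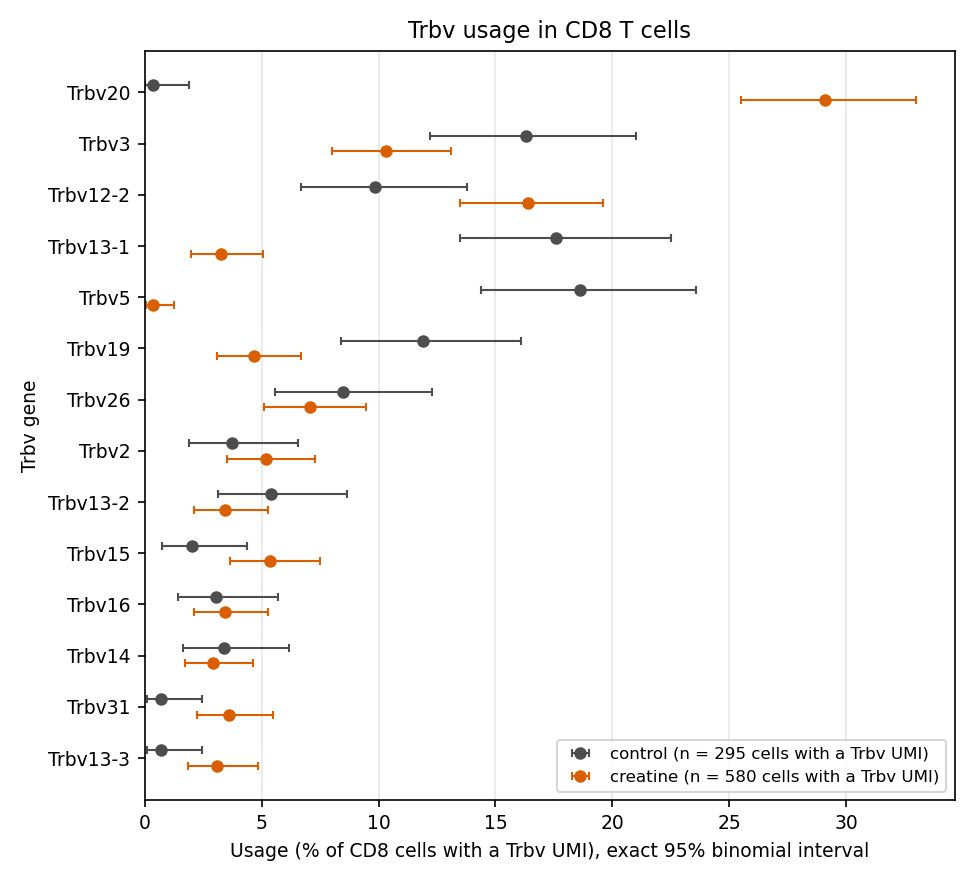
Usage of the 14 Trbv genes in at least 20 CD8 cells, as the percent of CD8 cells with a Trbv UMI, in control (grey, 295 cells) and creatine (orange, 580 cells), with bars for exact 95% binomial intervals. Trbv20 is at 0.339% in control and 29.1% in creatine, and Trbv5 at 18.6% and 0.345%.

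Of the alpha genes, Trav7-3 led both libraries, with 190 control and 215 creatine CD8 cells, a usage of 24.3% (21.3 to 27.4%) and 33.9% (30.2 to 37.7%). Its log2 ratio of creatine to control was 0.48, but -0.68 with 2 UMIs for a V gene and 0.19 thinned to 3000 UMIs. Trav14-3 (140 and 33 cells), Trav6-7 (109 and 30), Trav10 (100 and 2) and Trav6-3 (60 and 5) followed in control and were lower in creatine by ratios of 3.44 (2.34 to 5.19), 2.95 (1.95 to 4.57), 40.5 (10.9 to 339) and 9.73 (3.95 to 31.1). With 2 UMIs for a V gene, the log2 ratio of creatine to control was -0.92 for Trav6-7, under 2-fold, and -1.13 for Trav10. Trav6-6 (41 and 8 cells), Trav14-2 (38 and 10) and Trav9-2 (23 and 3) were also past 2-fold lower in creatine with intervals apart.

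Trav16, Trav3-3, Trav5-4 and Trav12-2 were higher in creatine. Trav16 had 58 and 116 cells, a usage of 7.41% and 18.3% and a ratio of 2.47 (1.78 to 3.44). Trav3-3 had 14 and 46 cells with a ratio of 4.05 (2.19 to 7.98), which was under 2-fold when cells were thinned to 3000 UMIs (log2 0.83), Trav12-2 had 6 and 25 cells with a ratio of 5.14 (2.06 to 15.3), and Trav5-4 had 1 and 40 cells with a ratio of 49.3 (8.36 to 1996). Trav8-2 (7 and 19 cells) was past 2-fold higher with overlapping usage intervals and a ratio interval of 1.35 to 9.42. Trav9-4 had 23 and 26 cells and a usage of 2.94% and 4.09%, with a ratio of 1.39 (0.765 to 2.56).

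**Figure D2:**
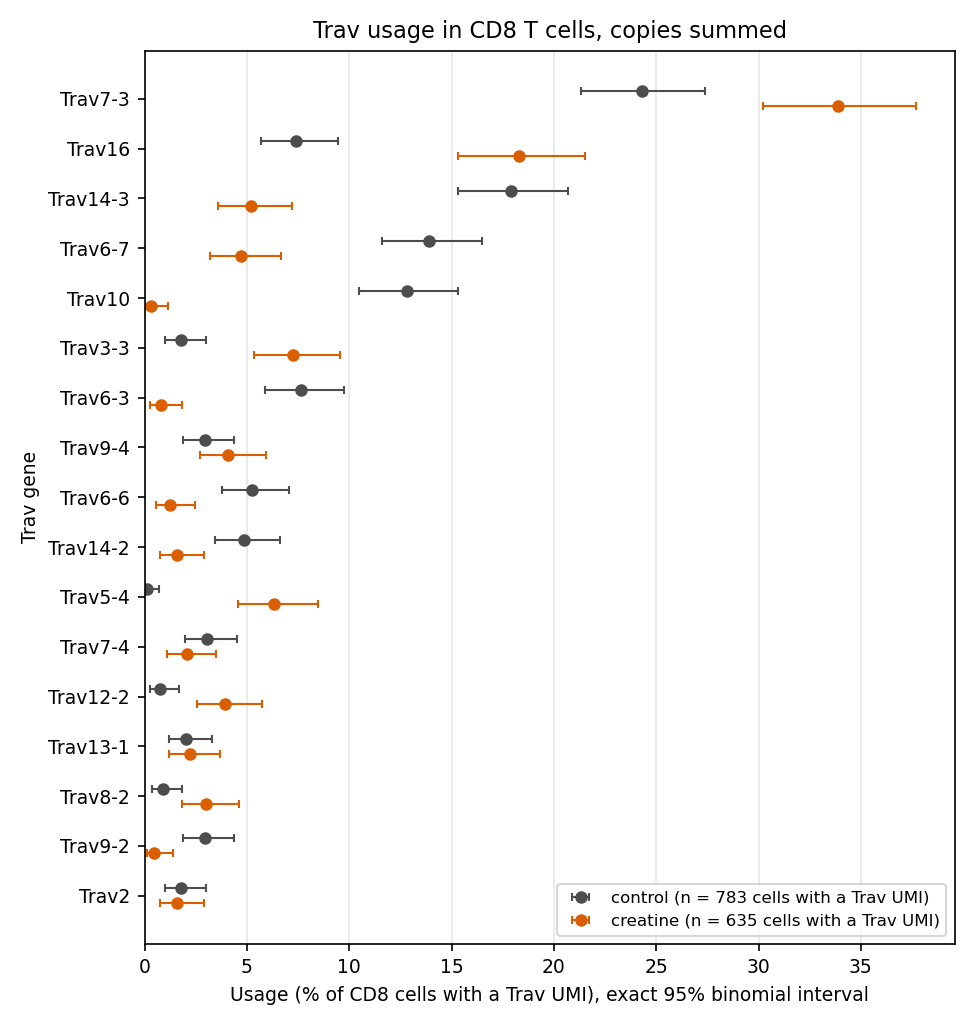
Usage of the 17 Trav groups (copies summed) in at least 20 CD8 cells, as the percent of CD8 cells with a Trav UMI, in control (grey, 783 cells) and creatine (orange, 635 cells), with bars for exact 95% binomial intervals. Trav7-3 leads both libraries at 24.3% and 33.9%, while Trav10 is at 12.8% in control and 0.315% in creatine.

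The shared lead of Trav7-3 came from different copies. In control, 187 of the 190 cells had the copy Trav7-3 (chr14:53443249-53443839), or 98.4% (95.5 to 99.7%), and 3 had Trav7d-3 (chr14:52744249-52744840). In creatine, 1 of 215 cells had Trav7-3, or 0.465% (0.0118 to 2.56%), and 214 had Trav7d-3. No cell had both. A cell with the gene held 2.07 UMIs of it on average in control and 1.29 in creatine. Both copies could be assigned, since 29.2% and 30.9% of their 50-base stretches were unique.

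Other copies also differed. Of the Trav16 cells, the unmarked copy made up 12 of 58 in control and 93 of 116 in creatine, and Trav16n 44 and 22. Of the Trav14-3 cells, Trav14d-3-dv8 made up 94 of 140 in control and 11 of 33 in creatine, Trav14n-3 46 and 13, and the unmarked copy 0 and 9. Trav10n made up 86 of the 100 control Trav10 cells. Trav7-4 was Trav7n-4 in 23 of 24 control cells and Trav7d-4 in 12 of 13 creatine cells. Only 1 cell, in creatine, held 2 copies of the same one of these groups, Trav16d-dv11 with Trav16n. Where only 1 copy could be assigned, as for Trav6-6, Trav6-7, Trav14-2 and Trav3-3, all cells were given to that copy in both libraries, and the share of the others is not known.

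**Figure D3:**
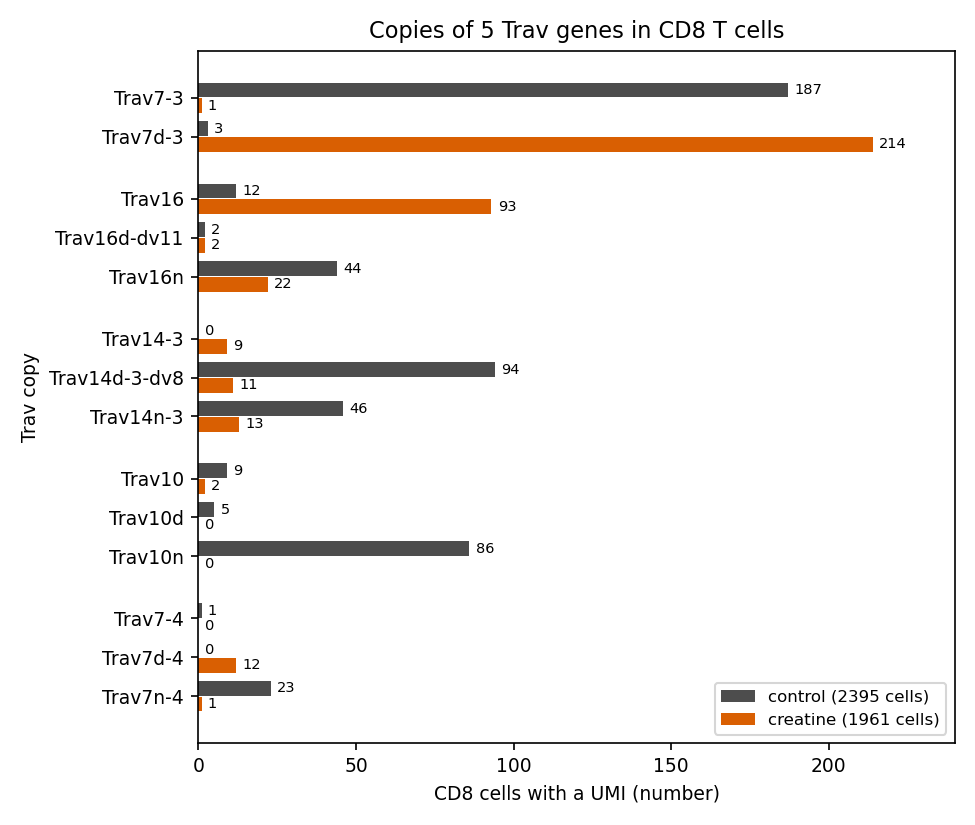
Number of CD8 cells with a UMI of each copy of 5 Trav groups, in control (grey, 2395 cells) and creatine (orange, 1961 cells), with the number printed at each bar. Trav7-3 has 187 control cells and 1 creatine cell, and Trav7d-3 has 3 and 214.

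Evenness was measured over CD8 cells with exactly 1 V gene of the chain. The effective number of genes, the number of equally used genes that would give the same chance of drawing 2 cells alike, was 8.76 for Trbv in control (275 cells) and 7.59 in creatine (543 cells). For Trav it was 10.3 in control (655 cells) and 5.94 in creatine (581 cells). Without the leading gene of each library the values were 8.47 and 10.4 for Trbv and 10.6 and 9.69 for Trav. The leading genes were Trbv5 with 19.6% of the control cells and Trbv20 with 28.9% of the creatine cells, and Trav7-3 with 18.6% and 35.5%. The limit to 1 gene kept 122 of the 190 control but 206 of the 215 creatine Trav7-3 cells, since the others also held another Trav group. Shannon evenness, which is 1 when all genes seen are used alike, was 0.799 and 0.807 for Trbv and 0.750 and 0.666 for Trav. In 581 cells, 34.9 Trav groups were expected in control and 41.0 were seen in creatine, so the creatine library had the lower effective number and the more groups. With 2 UMIs for a V gene the order of the Trbv effective numbers was reversed, at 6.22 in control and 6.77 in creatine. For Trav the order held, but the values lay close, at 4.37 and 4.12. With 1 dominant gene per cell, which keeps the cells with more than 1 Trav group, the Trav effective numbers were 9.89 in control and 6.55 in creatine.

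In regulatory and conventional CD4 cells, only regulatory Trav16 was found in at least 20 cells of both libraries together, and it was not past 2-fold. Regulatory cells were led by Trav16 in both libraries, with 16 of 78 control cells (12.2 to 31.2%) and 11 of 55 creatine cells (10.4 to 33.0%). Trav6-7 followed in control with 12 cells, against 3 in creatine. Their leading beta genes were Trbv2 in control (8 of 33 cells) and Trbv12-2 in creatine (5 of 27). Conventional CD4 cells were led by Trbv3 (9 of 28 cells) and Trav16 (8 of 42) in control. In creatine, Trbv13-1 and Trbv26 had 5 of 29 cells each, and Trav3-3 and Trav14-3 had 4 of 40 each. Trav7-3 and Trav7d-3, the leading copies of the CD8 cells, were in 1 to 2 cells of each of these gates and libraries when summed. Among 33 cells drawn from each gate, 13.2 and 12.5 Trav groups were expected in control and creatine CD8 cells, 16.0 and 21.0 in conventional CD4 cells, and 17.9 and 19.3 in regulatory cells. Among 26 cells, the numbers of Trbv genes were 10.1 and 11.0 in CD8, 9.64 and 11.9 in conventional CD4, and 11.0 and 12 in regulatory cells.

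Alpha-beta pairs were counted in CD8 cells with exactly 1 Trav group and 1 Trbv gene, 114 in control and 181 in creatine. A pair was listed when it had at least 5 cells and at least 3 times the product of the shares of its 2 genes. Of 63 pairs of genes with at least 5 paired cells each, 5 were listed in control (7.94%), and of 63 in creatine, 7 were listed (11.1%). They held 37 of the 114 and 73 of the 181 cells.

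The creatine library held 2 large pairs. Trav16 with Trbv3 was found in 36 cells, 3.90 times the product (2.73 to 5.40), and these were 94.7% of the 38 paired Trbv3 cells. Trav7-3 with Trbv20 was found in 39 cells, 95.1% of the 41 paired Trbv20 cells. Its ratio of 2.92 (2.08 to 3.99) lies just under the limit for a listed pair, and the highest ratio it could reach is 3.07, since Trav7-3 made up 59 of the 181 cells. The upper end of 3.99 lies above that, because the pair intervals hold the product fixed. The same is true of the other pair intervals given here, such as 5.40 against a highest possible ratio of 4.11 for Trav16 with Trbv3. They are therefore no measure of the full error of these ratios. The rule divides by the share of each gene in the same cells, so a large pair raises its own product and can be missed: in simulated data, it missed a large planted pair whose genes also had other partners. The rule was kept, and the pair is given here as not listed. The Trav7-3 group in these cells was the copy Trav7d-3, which was seen with Trbv20 in 40 of the 60 cells that had Trav7d-3 and 1 beta gene.

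The smaller creatine pairs were Trav12-2 with Trbv26 (8 cells, 9.28 times the product), Trav9-4 with Trbv15 (6 cells, 9.70 times), Trav14-3 with Trbv31 (5 cells, 10.8 times), Trav5-4 with Trbv12-2 (6 cells, 6.70 times), Trav3-3 with Trbv15 (6 cells, 5.66 times) and Trav3-3 with Trbv12-2 (6 cells, 3.35 times). Their intervals are wide, such as 3.50 to 25.1 for Trav14-3 with Trbv31. Trav7-3 was also seen with Trbv12-2 in 6 cells and with Trbv26 in 5, at 0.682 and 1.18 times the product.

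In control, no pair was as large. Trav7-3 with Trbv5 had 10 cells, 4.96 times the product (2.38 to 9.12), which was every paired Trav7-3 cell, and Trbv5 was also seen with 5 other Trav groups in 13 cells. Trav14-2 with Trbv3 had 8 cells (4.34 times), Trav6-6 with Trbv26 had 7 (6.05 times), and Trav14-3 with Trbv19 and Trav16 with Trbv13-2 had 6 each (4.15 and 5.70 times). Trav14-2 with Trbv13-1, at 5 cells and 2.26 times the product, was not listed.

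The listed pairs of one library were nearly absent from the other. This was not particular to them: of the 50 different pairs seen in control and 58 in creatine, most were not seen in the other library. Of the 5 listed control pairs, 4 had no cell in creatine and Trav14-3 with Trbv19 had 1. Of the 7 listed creatine pairs, 6 had no cell in control and Trav12-2 with Trbv26 had 1. Apart from Trav16 with Trbv3, the product of each in the other library was under 1 cell, so few or no cells could be looked for. Trav16 with Trbv3 had no cell in control, where the product gave 1.97. Trbv3 had Trav14-2 as its most frequent partner in control (8 of 15 cells) and Trav16 in creatine (36 of 38). Conventional CD4 and regulatory cells had only 4 to 8 paired cells each and no pair could be listed.

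**Figure D4:**
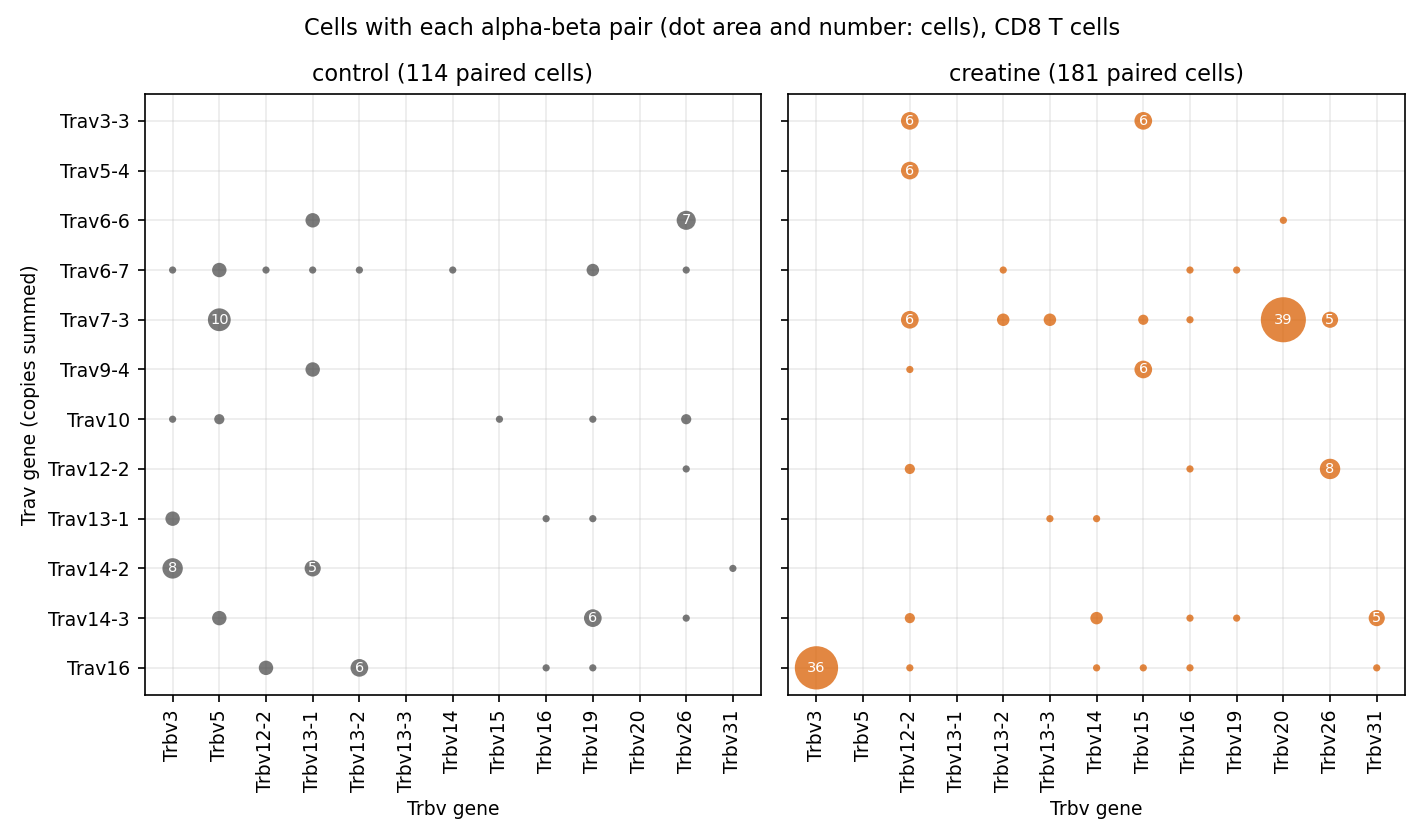
CD8 cells with each alpha-beta pair in control (left, grey, 114 paired cells) and creatine (right, orange, 181 paired cells), with Trbv genes across and Trav groups down, for genes in at least 5 paired cells of either library. Dot area is the number of cells, printed from 5 up, and Trav7-3 with Trbv20 (39) and Trav16 with Trbv3 (36) stand out in creatine.

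Cells with 2 or more V genes of a chain were fewer for the beta than for the alpha chain in control, while the intervals overlapped in creatine. They were 6.78% (4.19 to 10.3%) of the control and 6.38% (4.53 to 8.69%) of the creatine CD8 cells with a Trbv UMI, and 16.3% (13.8 to 19.1%) and 8.50% (6.45 to 11.0%) of those with a Trav UMI. Thinned to 3000 UMIs the creatine order was the other way, on few cells, with 3 of 159 for Trbv and 2 of 219 for Trav, and control had 0 of 91 and 14 of 273. The chains also differed in how often they were seen at all. A Trav UMI was in 32.4% and a Trbv UMI in 29.6% of creatine CD8 cells, but in 32.7% and 12.3% of control CD8 cells. What part this had in the control difference was not tested. In control, Trav6-3 with Trav7-3 was found in 37 cells, 7.77 times the product over all gated cells, so 37 of the 60 Trav6-3 cells also held Trav7-3. Trav6-3 (chr14:53428711-53430377) is the annotated Trav gene just before the Trav7-3 copy on the chromosome. Trav7-3 with Trav14-3 was found in 31 cells (2.79 times). In creatine the largest was Trav7-4 with Trav16, 8 cells (10.4 times). For Trbv, Trbv3 with Trbv13-1 had 7 cells in control (6.72 times), and Trbv12-2 with Trbv20 had 5 in creatine, 0.611 times the product. What part doublets, which were kept, had in these counts was not tested.

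The beta constant genes gave a readout that the pairs did not use. Trbc1 made up 21.0% of the Trbc1 and Trbc2 UMIs of control CD8 cells and 37.1% of those of creatine CD8 cells, and Trbc1 exceeded Trbc2 in 13.7% (12.3 to 15.1%) and 28.6% (26.6 to 30.7%) of the cells. In CD8 cells Trbc1 was at 363 CPM in control and 832 CPM in creatine, while Trbc2 was at 1370 and 1411. The higher Trbc1 in creatine was not particular to CD8 cells. It was at 569 and 970 CPM in conventional CD4 cells and at 352 and 573 CPM in regulatory cells, where no pair could be listed. Trbc2 was at 1392 and 1619 CPM in conventional CD4 cells and at 782 and 1019 CPM in regulatory cells. In CD8 cells with no Trbv UMI, Trbc1 made up 18.1% and 35.6% of the Trbc1 and Trbc2 UMIs.

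Pairs lay on either side of these values, and some control pairs lay near them. Trav7-3 with Trbv5, the largest control pair, was at 26.7% (21.0 to 33.1%), and Trav14-2 with Trbv13-1 at 18.3%. The intervals of these Trbc1 shares are over UMIs pooled from the cells, so they do not cover the spread between cells. Trav3-3 with Trbv12-2 in creatine was mixed, at 51.9% with Trbc1 above Trbc2 in 2 of 6 cells. In creatine, Trbc1 was 77.5% of the UMIs of the 36 Trav16 with Trbv3 cells (75.9 to 79.0%) and exceeded Trbc2 in 35 of them. In the 39 Trav7-3 with Trbv20 cells it was 5.03% (3.97 to 6.27%) and exceeded Trbc2 in none. Trav9-4 with Trbv15 was at 73.5%, with 6 of 6 cells above, and Trav5-4 with Trbv12-2 at 64.1%, whereas Trav7-3 with Trbv12-2 was at 6.67% with 0 of 6 cells above. In control, Trav6-6 with Trbv26 was at 60.6% with 7 of 7 cells above, Trav14-3 with Trbv19 at 62.6% with 5 of 6, Trav14-2 with Trbv3 at 13.3% with 0 of 8, and Trav16 with Trbv13-2 at 0% with 0 of 6. The same beta gene thus stood with different constant genes in different pairs: Trbv3 with Trav14-2 in control was at 13.3% and with Trav16 in creatine at 77.5%, and Trbv26 with Trav6-6 in control was at 60.6% and with Trav12-2 in creatine at 23.0%. The highest shares stayed under 80%, with Trbc2 UMIs present beside Trbc1. All CD8 cells with Trav7-3 and no other Trav group were at 22.9% in control (122 cells) and 4.90% in creatine (206 cells).

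**Figure D5:**
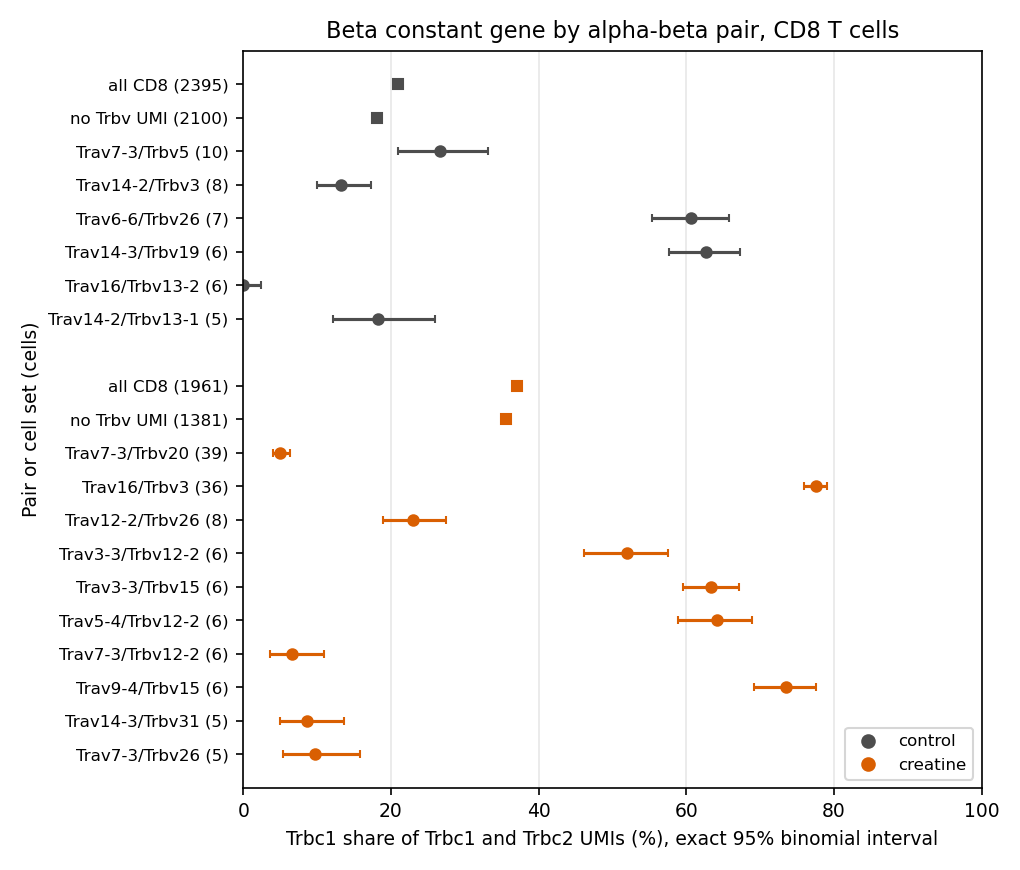
Trbc1 as a percent of Trbc1 and Trbc2 UMIs for each alpha-beta pair of at least 5 CD8 cells (circles, number of cells in brackets), beside all CD8 cells and those with no Trbv UMI (squares), in control (grey) and creatine (orange), with exact 95% binomial intervals over UMIs. In creatine, Trav16 with Trbv3 is at 77.5% and Trav7-3 with Trbv20 at 5.03%.

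The log2 ratio of creatine to control was 1.20 for Trbc1 and 0.04 for Trbc2. Trac was at 584 CPM in control and 775 CPM in creatine CD8 cells, a log2 ratio of 0.41, and the CD3 and zeta chain genes Cd3d, Cd3e, Cd3g and Cd247 had log2 ratios of 0.06, 0.32, 0.14 and 0.42. Trdc, the delta constant gene, was found in 1.34% and 1.43% of CD8 cells, Tcrg-C1 in 1.71% and 1.22% and Tcrg-C4 in 3.42% and 2.80%. Tcrg-C2, a gamma constant gene that alpha-beta T cells can also transcribe, was found in 6.97% (5.99 to 8.07%) of control and 15.9% (14.3 to 17.6%) of creatine CD8 cells. Among control cells with 1 beta gene it was found in 1 of 54 Trbv5 cells (0.0469 to 9.89%) and in 13 of 34 Trbv19 cells (22.2 to 56.4%). These had the lowest and the highest share of the control beta genes read. Among creatine cells it was found in 20 of 157 Trbv20 cells and 13 of 57 Trbv3 cells, with overlapping intervals.

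The CD8 cells were divided by transcripts into dividing cells (2 or more UMIs of 6 cell cycle genes), checkpoint-positive cells (not dividing, with Pdcd1, the PD-1 gene, and Havcr2, Lag3 or Tigit) and cells that were neither. Dividing cells made up 56.5% of control and 54.5% of creatine CD8 cells and were the deepest, with medians of 15948 and 19185 UMIs against 5439 and 6464 in cells that were neither. The 3 leading Trav genes of each library were ranked over its CD8 cells with 1 Trav group. They were Trav7-3, Trav10 and Trav14-3 in control, and Trav7-3, Trav16 and Trav3-3 in creatine, where Trav5-4 tied with Trav3-3 at 32 cells. In control they made up 46.6% (41.7 to 51.5%) of the dividing and 50.6% of the checkpoint-positive cells with 1 Trav group. Of those that were neither they made up 21.7% (13.4 to 32.1%), 18 of 83. In creatine these shares were 61.6% (56.4 to 66.6%), 60.9% and 37.0% (26.6 to 48.5%). The creatine difference lay in Trav7-3, with 39.0% of the dividing cells and 12.3% of those that were neither. Trav16 had 16.6% and 19.8% and led the creatine cells that were neither, and Trav3-3 had 5.99% and 4.94%, with overlapping intervals. In control each gene was higher in dividing cells, Trav7-3 at 17.6% and 8.43%, Trav10 at 14.6% and 6.02% and Trav14-3 at 14.4% and 7.23%. For each of these control genes the intervals overlapped.

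For the beta genes the summed share of the 3 leading genes was also lower in cells that were neither, but its interval overlapped that of the dividing cells. The 3 leading Trbv genes of control (Trbv5, Trbv3 and Trbv13-1) made up 51.1% (43.6 to 58.6%) of the dividing, 57.1% of the checkpoint-positive and 34.8% (21.4 to 50.2%) of the other control cells. Those of creatine (Trbv20, Trbv12-2 and Trbv3) made up 55.5% (50.2 to 60.8%), 57.1% and 40.4% (27.6 to 54.2%). Trbv5 was found in 41 of 180 dividing control cells and 3 of 46 that were neither, and Trbv20 in 108 of 353 and 6 of 57 creatine cells. Not all leading genes followed this: control Trbv3 was found in 20 of 180 dividing cells and 13 of 46 that were neither, and creatine Trbv12-2 in 48 of 353 and 13 of 57. Control Trbv13-1 was found in 31 of 180 and 0 of 46 (0 to 7.71%), and creatine Trbv3 in 40 of 353 and 4 of 57. The effective number of Trav genes was 20 and 14.9 in control and creatine cells that were neither, against 9.68 and 5.18 in dividing cells. The leading genes of each library had been picked from all its CD8 cells with 1 gene of the chain, most of which were dividing. These shares therefore describe the states and are no independent support. Of the 39 Trav7-3 with Trbv20 cells, 30 were dividing, 8 checkpoint-positive and 1 neither, and of the 36 Trav16 with Trbv3 cells, 26, 9 and 1. Among all paired cells, 9 of 114 in control and 11 of 181 in creatine were neither.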

How the data were processed

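The authors sequenced 1 pooled library per group with a 10x Genomics 3′ kit and made the gene tables with Cell Ranger 3.0.2 on mm10, per the submitters' processing notes. The deposited values are UMI counts per gene and cell, whole numbers with no normalization. The libraries held 80434564 and 72898494 UMIs in 7649 and 6503 barcodes. Cells with at least 300 UMIs, 100 genes and at most 25% mitochondrial UMIs were kept. A CD8, CD4 or regulatory T cell had at least 2 CD3 UMIs, 1 Trac UMI and at most 1 UMI of myeloid, dendritic or B cell markers. A V gene was scored from 1 UMI. Automatic Scrublet calls (scanpy 1.11.5) marked 3 and 9 cells and had not worked, so doublets were kept, and an alternative dropped the top-scoring 6%. Intervals are exact binomial or Poisson (scipy 1.17.1). Ratio intervals of usage condition on the summed cells. Ratio intervals of pairs are Poisson intervals of the observed cells with the product held fixed, so their upper ends can exceed the highest possible ratio. CPM values are the summed counts of a gene scaled to the UMIs of the gated cells. No test was run with 1 library per group. A finer split of the CD8 cells neither dividing nor checkpoint-positive had been planned and is not reported here, and these cells were kept together. The genes named are the 8 with the highest mean usage in each gate and chain, those past 2-fold with intervals apart (up to 6 each way), the listed pairs, the receptor complex genes and the copies of Trav groups in at least 20 cells. Trbv13-3, Trbv15, Trbv31 and Trav8-2 in CD8 cells, Trav14-2 with Trbv13-1, Trav7-3 with Trbv20, Trbv12-2 or Trbv26 and the same-chain pairs were named after their values were seen. The members and lists were chosen with earlier results of these data known. All 163 members matched the GENCODE M21 annotation by identifier. The fold, evenness and pair rules were tested on simulated data. The first simulated pair, which was large and whose genes had other partners, was missed by the pair rule. An odds ratio listed it, and listed more pairs that had not been planted. The simulation was then redrawn with pairs that the rule does list, and the missed case is kept beside them.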

Additional observations from a re-analysis of the deposited data

Results flagged for a closer look

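Trav22 was seen in data outside the T cell comparisons, above the limit that a count of 0 allows. In the NK gate, which required Ncr1 and Klrb1c and no Cd3e, Trac or Cd8b1 UMI, it was found in 23 of 469 control cells (4.90%, 3.13 to 7.27%) and in 24 of 882 creatine cells (2.72%, 1.75 to 4.02%). It is annotated as a pseudogene (chr14:53926978-53927595), and all its 50-base stretches were unique. CD8 cells held it in 3 of 2395 and 2 of 1961, monocytes and macrophages in 2 of 1239 and 1 of 1136, and conventional CD4 cells in 0 of 160 and 0 of 186, which allows up to 1.88% and 1.61%. The NK cells with any Trav UMI were 27 and 25, so nearly all of them held Trav22. Each positive cell had 1 UMI with few exceptions, 24 UMIs in 23 cells and 25 in 24.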

How the results depend on the processing

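No paired analysis was possible because each group is 1 library. No V gene share ratio, evenness ratio, count past 2-fold or count of listed pairs moved past its counting interval or, for counts, 1.5 times in the settings it was run under among these: a stricter cell filter, a stricter and a looser gate, no cells with a Trdc UMI, and likely doublets left out. The same held with copies not summed (not run for the shares), although the control Trav effective number was then 11.7 (10.3), and with 1 dominant gene per cell (run for evenness only). The state differences were run without doublets, thinned and with 2 UMIs only. Thinned to 3000 UMIs, the Trbv share ratio of creatine to control was 2.10 (2.40 as reported), the Trav ratio of effective numbers 0.715 (0.576), the Trbv and Trav genes past 2-fold 2 of 4 and 3 of 4, and no pair could be listed (0 and 0) in 18 and 23 paired cells. Thinned to 2000 UMIs, the Trav share ratio was 0.849 (0.990), the genes past 2-fold 1 of 3 and 3 of 4. The pairs were 0 and 0, in 6 and 6 paired cells. The pair rule asks for 5 cells at 3 times the product, so 0 in so few paired cells is no check. At 2000 UMIs the 3 leading control Trav genes lay 37.9 percentage points higher in dividing cells than in cells neither dividing nor checkpoint-positive (24.9). With 2 UMIs for a V gene, the Trav share ratio was 0.889 and the genes past 2-fold 1 of 2 and 3 of 5. The ratios of effective numbers were 1.09 for Trbv (0.866) and 0.942 for Trav. The pairs were 0 and 0, in 10 and 19 paired cells, again few for the rule. The state differences were then 40.2 points for control Trav, 53.8 for creatine Trbv (15.2) and -27.2 for control Trbv (16.3), the last reversed, and the log2 usage ratio of Trav7-3 reversed to -0.68 (0.48). The lower Trbv effective number in creatine and the size of the Trav difference therefore depend on single-UMI cells. The cause was not tested. With all gated cells as the denominator, 11 Trbv genes were past 2-fold (7) and the log2 ratio of Trbv3 was 0.61 in place of -0.65 and of Trbv19 -0.09 in place of -1.35. Alternatives added after seeing the data were an odds ratio of 3 for pairs, chosen once Trav7-3 with Trbv20 had been seen just under the limit, which listed 6 and 8 (Trav14-2 with Trbv13-1 and Trav7-3 with Trbv20 added), and leaving out Trbv20, which gave a Trbv share ratio of 1.76. Counts of 1 UMI in most cells limit every share.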
